A study of Callithrix jacchus with 71 samples.

Results

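Induced neural stem cell-like cells (iNSLCs) of the common marmoset were compared by their level of COL1A2, the gene of the α2 chain of type I collagen. COL1A2-high cells were the 36 iNSLCs with a normalized count of 10 or more, and COL1A2-negative cells were the 20 iNSLCs with a count of 0. These are 56 of 65 iNSLCs in a series of 71 single cells, and the 9 iNSLCs with values in between were left out of the comparison. Both classes come from the same E01F A-2 iNSLC clone at passage 1, which had been raised from embryonic skin fibroblasts with the EP-A set of episomal vectors (human OCT4, KLF4, SOX2, LIN28 and L-MYC, the dominant-negative mouse p53 construct mp53DD, and EGFP) on mouse feeder cells in the naive-state medium NSM. The remaining cells of the series, used here only as reference levels, were 4 No. 40 ESCs and 1 E01F A-2-2 iPSC, together called PSCs, and 1 E01F fibroblast. Cells had been sorted into wells, and the RNA of each was sequenced by RamDA-seq, a full-length method that primes on total RNA. The members were chosen by a measured value in cells of 1 clone, so the cells are not replicates of a condition, and all values below describe these cells without a test.

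Type I collagen is a triple helix of chains encoded by COL1A1 and COL1A2, with the COL1A1 chain the more numerous, and it is the main product of fibroblasts, bone cells and other mesenchymal cells. Neural stem cells line their niche with other matrix proteins, such as laminins, type IV collagen, perlecan and type XVIII collagen, and as they become neurons they pass through a short state marked by proneural factors and INSM1 before they make neuronal cytoskeleton proteins such as doublecortin. Neural crest cells, which leave the dorsal neural tube, can form both neural and mesenchymal tissues and are marked by SOX10, FOXD3, TFAP2A and PAX3.

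COL1A2 spanned 13.2 to 1069 normalized counts in COL1A2-high cells, with a median of 99.1 and a mean of 187 ± 236 (SD, n = 36). These cells held 7023 COL1A2 reads in all, and COL1A2-negative cells held none. The 3 cells just above the limit had 13.2, 13.8 and 17.0 normalized counts, and the 3 just below it had 9.56, 9.21 and 8.34. The 9 cells in between held 48 reads. In a COL1A2-negative cell, 3 reads would have been worth 1.67 to 8.51 normalized counts, so a level of 10 equals an expected 3 reads or more in each of the 20 cells. Sampling can give fewer reads, so a count of 0 does not place every one of these cells below 10. The single fibroblast had 11345 normalized counts, 10.6 times the highest iNSLC, and the PSCs had 0 to 1.62.

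**Figure D1:**
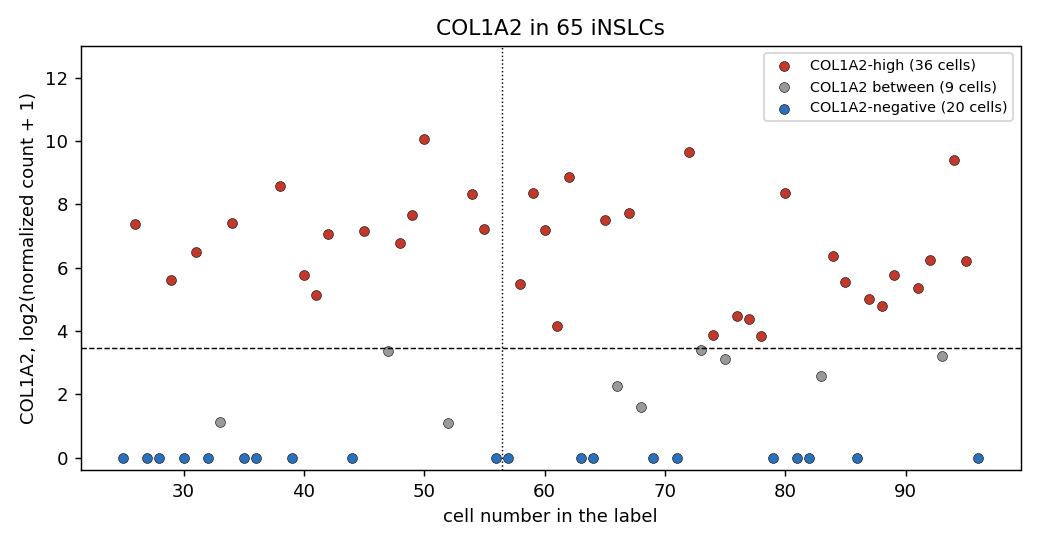
COL1A2 in the 65 iNSLCs, as log2 of the normalized count plus 1 on the vertical axis, against the cell number in the label. Each point is 1 cell, coloured by class, the dashed line is the limit of 10 normalized counts, and the dotted line parts cells numbered 56 or below from those numbered 57 or above. COL1A2-high and COL1A2-negative cells occur along the whole range of cell numbers.

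The classes differed in depth. COL1A2-high cells held 98507 to 642253 reads (median 269661) and a median of 11280 detected genes, and COL1A2-negative cells held 82268 to 499940 reads (median 242321) and a median of 10012.5 genes. Among cells numbered 56 or below (the first set), 14 of 27 were COL1A2-high and 10 were COL1A2-negative. Among cells numbered 57 or above (the second set), 22 of 38 were COL1A2-high and 10 were COL1A2-negative. The cell number is only a label, but the profiles of its sets differ, so values within the sets are given for the lists and genes the results turn on. Median reads were 440084 in COL1A2-high and 292457 in COL1A2-negative cells of the first set, against 213839 and 161634 in the second. The rank correlation of COL1A2 with reads per cell was 0.40 over the 27 cells of the first set and 0.15 over the 38 cells of the second. With detected genes per cell it was 0.36 and 0.33. The part of depth in the differences below was not tested beyond the alternatives given.

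Both classes carried the general neural stem cell profile of the label. Of the 25 genes of the neural stem cell list, the median cell of either class had reads of 23, and PSCs had reads of 7 to 12. SOX2, NES (the intermediate filament nestin) and MSI1 (an RNA-binding protein of neural progenitors) had reads in all 36 COL1A2-high and all 20 COL1A2-negative cells. SOX2 and NES also had reads in every PSC. SOX2 averaged 101 ± 54.1 normalized counts in COL1A2-high and 88.0 ± 39.7 in COL1A2-negative cells, and NES averaged 268 ± 117 and 252 ± 150 in the same classes (SD). The log2 ratio of means, COL1A2-high over COL1A2-negative after a pseudocount of 1, was 0.19 for SOX2, 0.09 for NES and −0.30 for MSI1. Human SOX2 is on the vectors, and the part of vector reads in these values was not tested.

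COL1A2 was accompanied by little of its partner chain. COL1A1 was at 0 to 21.0 normalized counts in COL1A2-high cells, with a median of 0 and a mean of 2.43 ± 5.28, and at 0 to 5.53 in COL1A2-negative cells, with a mean of 0.455 ± 1.44 (SD). It had a read in 13 of 36 COL1A2-high cells (36.1%, exact 95% Clopper-Pearson interval 20.8 to 53.8%) and in 2 of 20 COL1A2-negative cells (10.0%, 1.23 to 31.7%). These intervals cover counting error only, and reads carry no molecular tags. The ratio of the COL1A2 mean to the COL1A1 mean, not corrected for gene length and used only to set kinds of cell side by side, was 76.9 in COL1A2-high cells and 1.16 in the fibroblast, where COL1A1 stood at 9769. PSCs had COL1A1 at 20.3 to 380 and COL1A2 at 1.62 or less. COL3A1, the type III collagen chain that fibroblasts make beside type I, held 12 reads over all COL1A2-high cells and 1 read over all COL1A2-negative cells, against 12921 reads in the fibroblast alone.

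**Figure D2:**
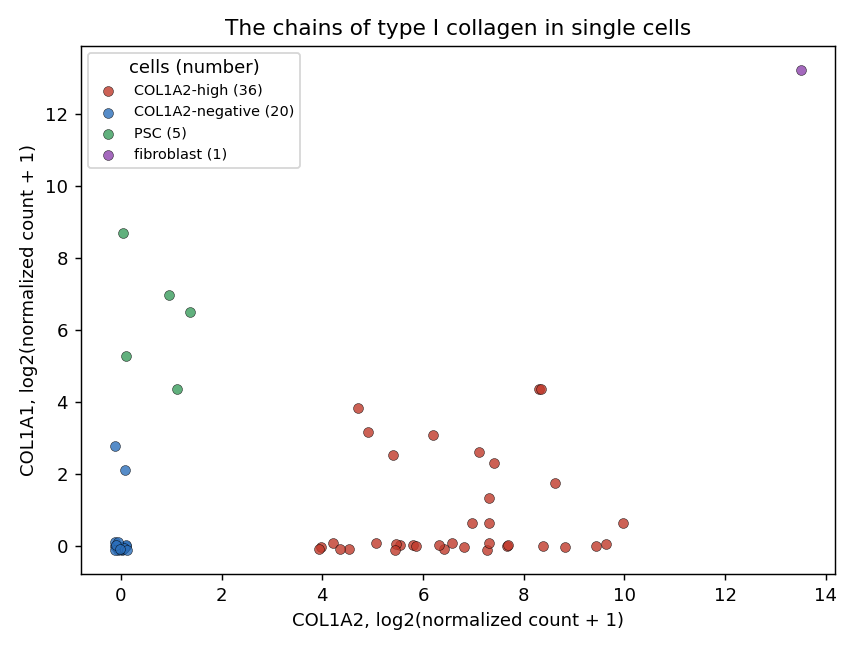
COL1A1 on the vertical axis against COL1A2 on the horizontal axis, both as log2 of the normalized count plus 1, in COL1A2-high, COL1A2-negative, PSC and fibroblast cells. Each point is 1 cell, moved by a small random amount so that cells at 0 can be seen. Most COL1A2-high cells lie on the floor of COL1A1, PSCs have COL1A1 with little COL1A2, and the fibroblast is high in both.

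The list of fibroblast markers, with COL1A2 itself left out, was far below the fibroblast in both classes. Of its 22 genes, 4 (POSTN, FAP, PRRX1 and DDR2) had no read in any of the 65 iNSLCs, which allows a share of up to 4.62% of cells with a read. The summed level of the list was 156 to 968 normalized counts in COL1A2-high cells (median 441), 81.2 to 723 in COL1A2-negative cells (median 285) and 28931 in the fibroblast. PSCs had 282 to 1146 (median 458), so the COL1A2-high median was near that of PSCs. TWIST1, a mesenchymal transcription factor, had a read in 4 of 36 COL1A2-high and 3 of 20 COL1A2-negative cells. Of the 4 genes of the list that were counted, COL6A1 and TAGLN, described below, were past 2-fold higher in COL1A2-high cells, beside 1.57% of all genes.

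Across the genome, few genes separated the classes. Genes were counted where they averaged 10 normalized counts or more over the 65 iNSLCs, COL1A2 left out. Of these 6117 genes, 96 (1.57%) were at least 2-fold higher in COL1A2-high cells and 49 (0.801%) at least 2-fold lower. With every cell scaled to the same total, the counts were 84 and 70 of 6215 genes, which moves the share of higher genes among those past 2-fold to 54.5%, against 66.2% with the values as deposited. The median log2 ratio of all genes counted was 0.07, and 58.5% of genes had a ratio above 0. COL1A2-high cells outnumber COL1A2-negative cells in the mean used as the filter. Genes high only in COL1A2-high cells thus pass it more readily than genes high only in COL1A2-negative cells. The split of higher and lower genes was not corrected for this. Among genes past 2-fold higher given below, COL6A1, CCN2, NID2, SFRP2, ID1, ACTA2, TAGLN and MYL9 averaged under 10 in COL1A2-negative cells. So did PLA2G3, GDF10, PLTP, FBXL7, PACSIN1, TERT, CCNB1, MCM2, CDCA7 and SORL1. On the lower side, DLL3, POU2F2, L1CAM and TMCC2 averaged under 10 in COL1A2-high cells. All of these passed the filter only through the other iNSLCs, so shares that count them lean toward genes that differ. Within cells numbered 56 or below, 363 genes (5.93%) were 2-fold higher and 149 (2.44%) lower. Within cells numbered 57 or above, 126 (2.06%) were higher and 86 (1.41%) lower.

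The sets of cell numbers shared a small part of these genes. Past 2-fold in the same direction in each set were 34 genes that were higher (0.556% of genes counted) and 18 that were lower (0.294%). The 34 are 9.37% of the higher genes of the first set and 27.0% of those of the second, and the 18 are 12.1% and 20.9% of the lower genes. Another 24 genes were higher in the first set and lower in the second, and 6 were the reverse. Across the genes counted, which are not independent, the Pearson correlation of the ratios in the sets was 0.16. Most of the differences between the classes were thus not shared by the sets.

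**Figure D3:**
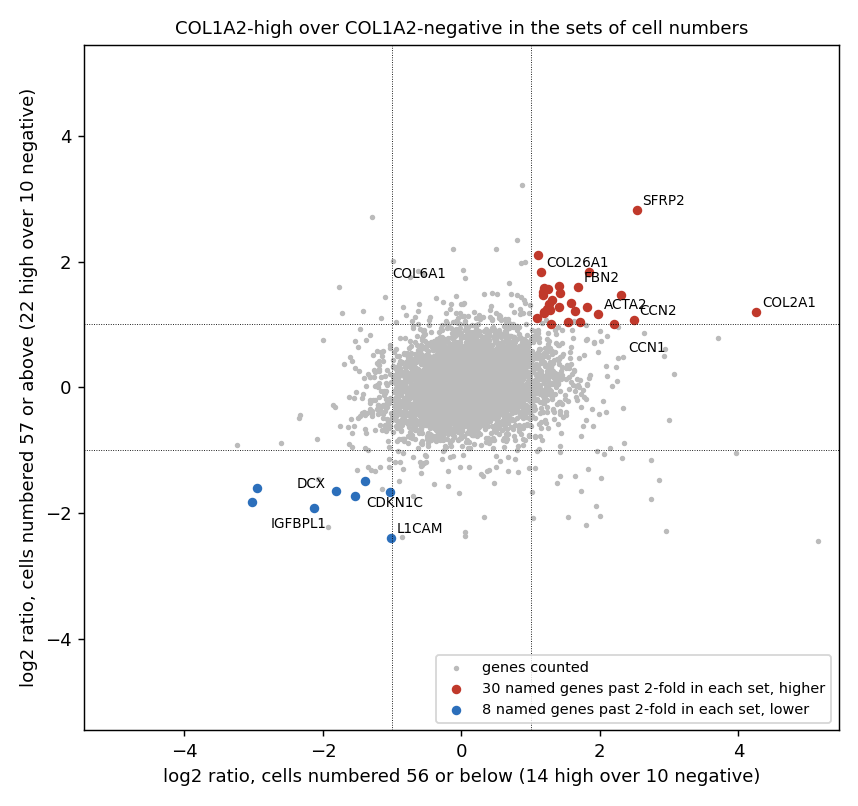
Log2 ratio of means, COL1A2-high over COL1A2-negative, in cells numbered 57 or above (vertical) against cells numbered 56 or below (horizontal). Each point is 1 of the genes counted, dotted lines mark 2-fold, and coloured points are the named genes past 2-fold in each set and without the highest cell of the higher class (30 higher, 8 lower). SFRP2 and COL2A1 stand farthest out among the higher genes.

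Among the collagens, COL2A1 and COL6A1 stood out. Of 12 collagen chain genes counted, 2 were past 2-fold higher and none lower, beside 1.57% of all genes higher. A ratio above 0 was found for 10, beside 58.5% of all genes, and the median log2 ratio was 0.45, beside 0.07 over all genes. In the first set the median of the collagen chains was 0.11, close to the 0.09 of all genes there, and in the second it was 0.52, beside 0.03. COL2A1, the type II collagen chain of cartilage and of the embryonic notochord and neuroepithelium, ran over 0 to 536 normalized counts in COL1A2-high cells (median 36.5, mean 106 ± 140) and over 0 to 140 in COL1A2-negative cells (median 8.76, mean 25.1 ± 40.7). The ranges overlapped, and no COL1A2-negative cell passed 140. Its log2 ratio was 2.04 over all cells, 4.26 in the first set and 1.20 in the second. The fibroblast had no COL2A1 read, and the 9 cells in between had a median of 179. Summed over the collagen chains without COL1A2, medians were 1023 in COL1A2-high, 1101 in the cells in between and 709 in COL1A2-negative cells.

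COL6A1, a chain of the microfibrillar type VI collagen, averaged 27.9 ± 38.1 in COL1A2-high cells and 9.16 ± 12.7 in COL1A2-negative cells, with reads in 26 of 36 and 9 of 20 cells. Its log2 ratio of 1.51 came from the second set (1.74), and it was 0.05 in the first. COL18A1, the basement membrane collagen that carries endostatin, had 89.4 to 943 normalized counts (median 377) in COL1A2-high cells and 2.28 to 493 (median 208) in COL1A2-negative cells. The log2 ratio of COL18A1 was 0.75 (0.57 in the first set, 0.65 in the second), under 2-fold. COL4A1 and COL4A2, the paired chains of type IV collagen, had log2 ratios of 0.46 and 0.55. COL5A2, of fibrillar type V collagen, was level at −0.08, and COL14A1, a fibril-associated chain, had −0.63. COL26A1, which was not in the collagen list and is named by its size of change, averaged 52.4 ± 36.3 in COL1A2-high and 16.7 ± 22.6 in COL1A2-negative cells, with a log2 ratio of 1.59 (1.15 and 1.83 in the sets).

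The counted genes for folding and linking collagen were close to level, while 2 uncounted crosslinking genes were higher in COL1A2-high cells. None of 13 such genes counted was past 2-fold, beside 1.57% of all genes higher and 0.801% lower, and the median log2 ratio was 0.17. SERPINH1, the collagen chaperone HSP47, had 65.0 to 470 normalized counts in COL1A2-high cells (median 208) and 47.3 to 279 in COL1A2-negative cells (median 129), a log2 ratio of 0.59 that was similar in the sets (0.60 and 0.49). FKBP10, a prolyl isomerase for procollagen, had a log2 ratio of 0.67, and PLOD2, a lysyl hydroxylase, had −0.73. The crosslinking oxidases LOX and LOXL1 were under the mean of 10 and were not counted, but both averaged higher in COL1A2-high cells. LOX averaged 10.4 ± 15.2 and 3.68 ± 4.22 in COL1A2-high and COL1A2-negative cells, and LOXL1 averaged 12.3 ± 16.6 and 3.06 ± 6.44 in the same order.

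Of 20 other matrix genes counted, 4 were past 2-fold higher and none lower, beside 1.57% of all genes higher. A ratio above 0 was found for 17, beside 58.5% of all genes, and the median was 0.36 (0.66 in the first set, 0.23 in the second). The summed level of the list had medians of 2398 normalized counts in COL1A2-high and 1838 in COL1A2-negative cells. In the 9 cells in between it was 2407, so this level was not particular to COL1A2-high cells. FBN2, the fibrillin of embryonic microfibrils, had 0 to 182 normalized counts in COL1A2-high cells (median 29.6) and 0 to 62.0 in COL1A2-negative cells (median 6.23). It had a read in 34 of 36 and in 11 of 20 cells, and its log2 ratio was 1.63, with 1.69 and 1.60 in the sets. NID2, a basement membrane linker, averaged 21.1 ± 21.1 in COL1A2-high and 7.79 ± 8.90 in COL1A2-negative cells, a log2 ratio of 1.33 (1.27 and 1.33 in the sets). Both of these differences were alike in the sets.

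CCN2 and CCN1 (CTGF and CYR61), secreted proteins that are targets of YAP and of serum response factor, were the other matrix genes past 2-fold. CCN2 had a log2 ratio of 1.68 (2.49 and 1.07 in the sets) with 23.9 ± 38.4 in COL1A2-high and 6.74 ± 13.7 in COL1A2-negative cells, and CCN1 had 1.18 (2.33 and 0.48), or 0.88 without its highest COL1A2-high cell. For CCN2 the median was 3.83 in COL1A2-high cells and 0 in COL1A2-negative cells, so a few cells carried most of its level. SPARC, a collagen-binding glycoprotein with reads in every cell, had 209 to 903 (median 360) in COL1A2-high cells and 40.6 to 691 (median 277) in COL1A2-negative cells, a log2 ratio of 0.54. FN1 (fibronectin), LAMA1 (a laminin chain) and HSPG2 (perlecan) were nearly level, at −0.07, −0.07 and 0.05.

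In the mesenchymal list ACTA2, TAGLN and MYL9 were past 2-fold higher in COL1A2-high cells, and the transcription factors were absent, rare or under 2-fold. These are 3 of 10 members counted, beside 1.57% of all genes, and each was past 2-fold in both sets, beside 0.556% of all genes. All 3 averaged under 10 in COL1A2-negative cells and passed the filter only through the other iNSLCs, so these shares lean toward higher genes. No member was 2-fold lower, and the median log2 ratio was 0.78 (0.97 in the first set, 0.59 in the second). ACTA2, smooth muscle actin, had 0 to 95.4 normalized counts in COL1A2-high cells (median 12.5) and 0 to 44.7 in COL1A2-negative cells (median 0). A read of ACTA2 was found in 23 of 36 COL1A2-high cells (63.9%, 46.2 to 79.2%) and in 6 of 20 COL1A2-negative cells (30.0%, 11.9 to 54.3%). Its log2 ratio was 1.5, with 1.98 and 1.17 in the sets, and the fibroblast stood at 2347.

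TAGLN (transgelin, an actin-binding protein of smooth muscle) averaged 22.6 ± 39.8 in COL1A2-high and 8.42 ± 17.6 in COL1A2-negative cells, with reads in 31 of 36 and 10 of 20 cells and a log2 ratio of 1.32 (1.62 and 1.06 in the sets). Without its highest COL1A2-high cell TAGLN was at 0.95, under 2-fold. MYL9, a regulatory myosin light chain, had a log2 ratio of 1.49 (1.26 and 1.56 in the sets). TPM1 (tropomyosin) and CALD1 (caldesmon) had 0.88 and 0.98, under 2-fold. TPM2, another tropomyosin, was under the mean of 10: it had reads in 12 of 36 COL1A2-high cells and in 0 of 20 COL1A2-negative cells, which allows a share of up to 15%. The ranges of ACTA2 and TAGLN overlapped between the classes, and 13 COL1A2-high cells had no ACTA2 read.

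PRRX1, a limb and skin mesenchyme factor, was at 0 in all iNSLCs. ZEB1 and ZEB2, factors of epithelial-mesenchymal transition, had log2 ratios of −0.56 and 0.19. VIM, vimentin, was nearly level at −0.06, with medians of 2554 normalized counts in COL1A2-high and 2104 in COL1A2-negative cells. PDGFRB, a receptor of mural cells and fibroblasts, averaged 10.2 ± 17.9 in COL1A2-high and 2.07 ± 4.86 in COL1A2-negative cells and was under the mean of 10. NOTCH3, a receptor of mural cells that neural progenitors share, had a log2 ratio of 0.50. Of the 3 muscle and pericyte genes counted none was past 2-fold, beside 1.57% of all genes higher and 0.801% lower.

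**Figure D4:**
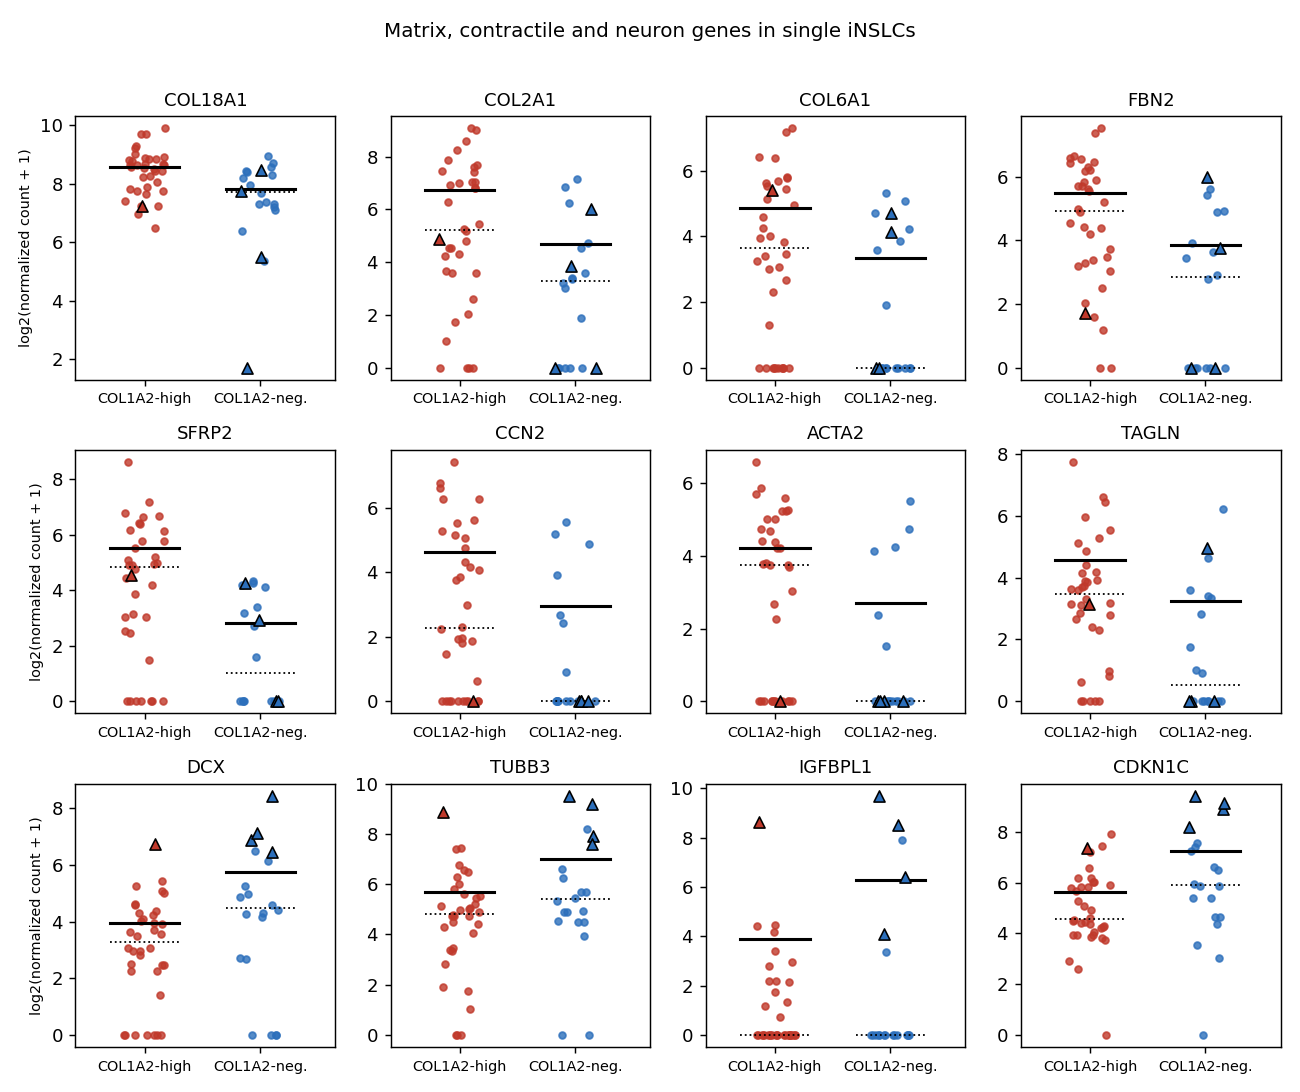
Levels of 12 genes in single cells, COL1A2-high left of COL1A2-negative, as log2 of the normalized count plus 1. Each point is 1 cell, solid bars are log2 of the class mean plus 1, dotted bars are the medians, and triangles are the 5 cells with INSM1 reads. The classes overlap for every gene, and the triangles hold the top of DCX, IGFBPL1 and CDKN1C in COL1A2-negative cells.

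The largest ratio among the named genes past 2-fold in each set was that of SFRP2, a secreted modulator of Wnt signalling found in neuroepithelium and in mesenchyme. It had 0 to 394 normalized counts in COL1A2-high cells (median 27.4, mean 45.4 ± 70.7) and 0 to 19.2 in COL1A2-negative cells (median 1.02, mean 6.07 ± 7.64). No COL1A2-negative cell passed 19.2, while more than 50% of COL1A2-high cells did, since their median was 27.4. Reads of SFRP2 were present in 29 of 36 COL1A2-high cells (80.6%) and 10 of 20 COL1A2-negative cells (50.0%). At an equal depth of 129629 reads the expected shares were 77.6% and 60.9%. The log2 ratio was 2.71 over all cells, 2.54 in the first set and 2.82 in the second. The fibroblast had no SFRP2 read, and PSCs had 25.5 to 231 normalized counts (median 170), above the COL1A2-high median.

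Other genes for secreted or surface proteins were among the 15 named genes with the largest ratios. GDF10, a ligand of the TGF-beta family, had a log2 ratio of 1.82, PLA2G3, a secreted phospholipase, 1.94, and PLTP, a phospholipid transfer protein, 1.52. SEMA5A, a semaphorin that guides axons, had 0 to 233 in COL1A2-high cells (median 60.5) and 0 to 90.8 in COL1A2-negative cells (median 12.0), with a ratio of 1.52. Of 11 genes of the TGF-beta and BMP pathways counted, ID1, a target of BMP signalling, was the single one past 2-fold (1.44), beside 1.57% of all genes higher. The median of the list was −0.06. Also among the 15 were FBXL7 (an F-box protein, 1.68), PACSIN1 (an endocytosis adaptor, 1.51) and the SCO-spondin pseudogene SSPOP (1.45), beside genes given above.

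Likeness to COL1A2 was also read from the rank correlation over all iNSLCs, including the 9 cells in between, as the mean of the values within the sets. This describes cells of 1 culture that differ in depth, and over 5816 named genes it ran between −0.42 and 0.54 with a median of 0.04. FSTL1, a secreted follistatin-like glycoprotein, was highest at 0.54 (0.66 and 0.43 in the sets). FSTL1 had 110 to 608 normalized counts in COL1A2-high cells (median 246) and 9.23 to 292 in COL1A2-negative cells (median 113), and it had reads in all of these cells. CDCA7, ATP2B4, MAGED1, SERPINH1, TAB1, APOE, VTN, SEMA5A and SORL1 followed, at 0.51 to 0.47.

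Among these likeness genes, APOE, the lipid carrier made by glia and radial glia, averaged 186 ± 140 in COL1A2-high and 60.6 ± 52.8 in COL1A2-negative cells, with a log2 ratio of 1.60 (0.91 and 1.99 in the sets). VTN, the matrix and serum protein vitronectin, had a log2 ratio of 1.34, a read in all 36 COL1A2-high cells and a read in 15 of 20 COL1A2-negative cells. At the other end stood SRF (−0.42), CDS2 (−0.41), RBM25 (−0.41), TMCC2 (−0.38) and PIM3 (−0.38). SRF is serum response factor, which binds the promoters of ACTA2, TAGLN and CCN1, and it had 0 to 76.2 normalized counts in COL1A2-high cells (median 13.9) and 0.967 to 71.9 in COL1A2-negative cells (median 25.1). Its log2 ratio was −0.72.

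The neural crest genes counted did not go with COL1A2 as a group. None of 8 counted, of 28 with a row, was past 2-fold, beside 1.57% of all genes higher and 0.801% lower. With so few genes, a count of none is near these shares. A ratio above 0 was found for 5, beside 58.5% of all genes. The median log2 ratio was 0.12, beside 0.07 over all genes. The defining crest factors were nearly absent: SOX10 had reads in 2 of 36 COL1A2-high and 1 of 20 COL1A2-negative cells, and FOXD3 in none of the 65 iNSLCs. PAX3, which marks dorsal neural tube and crest, had 0 to 324 normalized counts in COL1A2-high cells (median 55.6) and 12.9 to 385 in COL1A2-negative cells (median 109), a log2 ratio of −0.91 (−1.38 and −0.72 in the sets). PAX7, its paralog, had −0.89, ZIC1, another dorsal factor, 0.65 and SOX9 0.23. With equal totals PAX3 was at −1.03, past 2-fold, and in the cells with at least 129629 reads the log2 ratio of PAX7 was −1.11.

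Neural stem cell genes were close to level. Of 23 counted, 1 was past 2-fold higher (HES5) and 1 lower (DLL1), beside 1.57% and 0.801% of all genes. A ratio above 0 was found for 12, beside 58.5% of all genes, and the median log2 ratio was 0.03. HES5, a Notch target that keeps progenitors from differentiating, averaged 30.8 ± 43.7 in COL1A2-high and 14.8 ± 27.1 in COL1A2-negative cells. Its log2 ratio of 1.01 came from the second set alone (1.33), and it was −0.0044 in the first. HES5 was under 2-fold with equal totals (0.93), without its highest COL1A2-high cell (0.83) and without the cells with INSM1 reads described below (0.75). NR2F2 (COUP-TFII), at 0.91, and FABP7, a fatty acid binding protein of radial glia, at 0.74, were the next highest. PAX6, the factor of dorsal progenitors, averaged 17.9 ± 12.7 in COL1A2-high and 31.9 ± 23.9 in COL1A2-negative cells, a log2 ratio of −0.80 (−1.08 and −0.59 in the sets).

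DLL1, a Notch ligand, had a log2 ratio of −1.51, but its medians were 28.1 in COL1A2-high and 23.2 in COL1A2-negative cells. COL1A2-negative cell 57 alone had 1088 normalized counts of DLL1, and without the highest cell of each class the ratio was −0.77. Of the other groups of neural genes, the 6 radial glia and glial genes counted had a median of −0.02, and the 4 HOX genes counted one of −0.15. None was past 2-fold in either list, beside 1.57% of all genes higher and 0.801% lower.

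By class means, proneural and neuron genes were lower in COL1A2-high cells, but their summed level was not lower in the median cell. Summed over the 20 genes with a row, it was 71.0 to 4103 normalized counts in COL1A2-high cells (median 207). In COL1A2-negative cells it was 54.2 to 2834 (median 170). Medians were 173 and 207 in the first set and 236 and 168 in the second, COL1A2-high before COL1A2-negative. Of 8 counted, 4 were past 2-fold lower, none higher, and the median log2 ratio was −1.03 (−0.67 and −1.11 in the sets), beside 0.801% of all genes past 2-fold lower. DCX, doublecortin, a microtubule protein of migrating neurons, had 0 to 106 normalized counts in COL1A2-high cells (median 8.78, mean 14.3 ± 19.3) and 0 to 349 in COL1A2-negative cells (median 21.5, mean 52.8 ± 81.0). The share of cells with a DCX read was alike, 29 of 36 and 16 of 20, so it was the level and not the presence that differed. The log2 ratio of DCX was −1.81 (−1.81 and −1.65 in the sets).

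TUBB3, neuronal class III tubulin, averaged 51.2 ± 83.1 in COL1A2-high and 129 ± 201 in COL1A2-negative cells, with medians of 27.3 and 41.0 and a log2 ratio of −1.31 (−1.30 and −1.31 in the sets). Without its highest COL1A2-negative cell it was −0.90, and DCX was −1.32. Its row was found by its RefSeq gene ID, and reads shared with other tubulin genes could not be checked. DLL3, a Notch ligand of differentiating neurons, had a log2 ratio of −2.75. It rests on a single COL1A2-negative cell (cell 25, with 405 normalized counts), and without the highest cell of each class it was −0.88. CRABP1, a retinoic acid binding protein, had −0.74, and NCAM1 was level at −0.01.

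A few cells held much of the level of several neuron genes. INSM1, a factor of newborn neurons, had reads in 1 of 36 COL1A2-high cells (2.78%, 0.0703 to 14.5%) and in 4 of 20 COL1A2-negative cells (20%, 5.73 to 43.7%), intervals that overlap. Its level was 85.7 normalized counts in COL1A2-high cell 40, and 18.3, 187, 29.8 and 109 in COL1A2-negative cells 25, 27, 57 and 81. Of the 5 iNSLCs with the highest DCX, 4 were among these 5 cells, and the same held for TUBB3, IGFBPL1 and CDKN1C, while for STMN2 (the neuronal protein stathmin-2) and L1CAM it was 2 of 5. The COL1A2-high cell 40 had a COL1A2 of 53.0 beside 106 of DCX, 469 of TUBB3 and 398 of IGFBPL1, the highest of each among COL1A2-high cells.

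These 5 cells were singled out after their values were seen, by a gene of newborn neurons, and 4 of them are COL1A2-negative, so smaller differences in neuron genes without them follow in part from the choice. Without them, 35 COL1A2-high and 16 COL1A2-negative cells remained, and none of the 8 neuron genes was 2-fold lower, with a list median of −0.17. MAP2, a microtubule protein of neuronal dendrites that was at −0.25 over all cells, was then 2-fold higher, at 1.16, with means of 18.8 in COL1A2-high and 7.82 in COL1A2-negative cells. DCX then averaged 11.7 in COL1A2-high and 22.7 in COL1A2-negative cells (log2 ratio −0.90), and TUBB3 39.3 and 50.9 (−0.37). DLL1 turned to 0.57. In the same 51 cells the median log2 ratio was 0.53 for collagen chains, 0.27 for other matrix genes and 0.68 for mesenchymal genes, and SFRP2 stood at 2.74 and COL2A1 at 1.99. CCN1 was under 2-fold, at 0.95. Over all genes counted, 122 were then 2-fold higher and 43 lower.

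**Figure D5:**
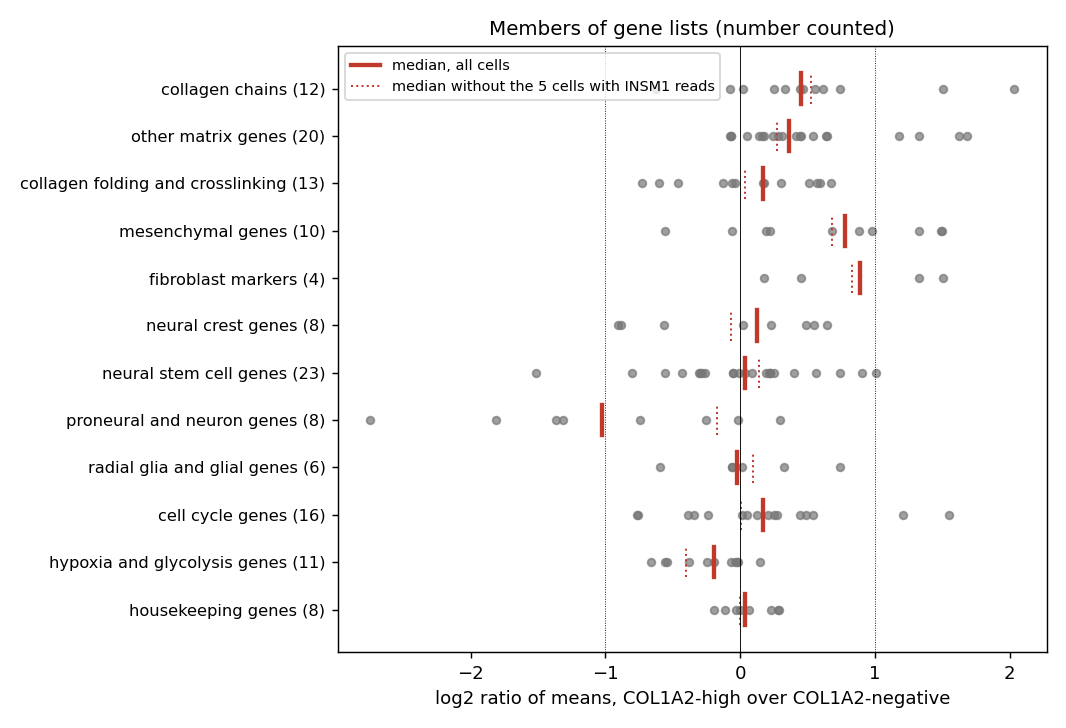
Log2 ratios of means, COL1A2-high over COL1A2-negative, for the counted members of 12 gene lists (grey points, number of members in brackets). Solid red bars are list medians over all cells, dotted red bars are the medians without the 5 cells with INSM1 reads, and dotted black lines mark 2-fold. Collagen, matrix and mesenchymal medians lie right of 0 either way, and the proneural and neuron median moves toward 0 without the 5 cells.

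By size of difference, 8 named genes were 2-fold lower in each set and without the highest COL1A2-negative cell. IGFBPL1, a growth factor binding protein of newborn neurons, had the largest difference, −2.41, with reads in 14 of 36 COL1A2-high and 6 of 20 COL1A2-negative cells and a median of 0 in both. POU2F2, a POU-domain factor, had −2.20, L1CAM, an axon adhesion molecule, −1.80, SLITRK2, a synaptic transmembrane protein, −1.79, and CDKN1C, the cell cycle inhibitor p57, −1.62. CDKN1C had 0 to 242 normalized counts in COL1A2-high cells (median 23.0) and 0 to 688 in COL1A2-negative cells (median 59.0). The others were DCX, given above, SH2D3C (−1.38) and TMCC2 (−1.37).

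Of these 8 genes, DCX, CDKN1C (−0.51) and SH2D3C (−0.99) were under 2-fold without the cells with INSM1 reads. SLITRK2 was then at −1.86, POU2F2 at −1.40, TMCC2 at −1.29 and L1CAM at −1.19. IGFBPL1 was at −2.13, but among the COL1A2-negative cells left it had reads only in cell 36, with 238 normalized counts, and in cell 30, with 9.17.

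Cell cycle genes did not differ in the same way in the sets. Of 16 counted, CCNB1 (cyclin B1, log2 ratio 1.55) and MCM2 (a subunit of the replicative helicase, 1.21) were past 2-fold higher over all cells. These are 2 of 16, beside 1.57% of all genes. Both averaged under 10 in COL1A2-negative cells and passed the filter only through the other iNSLCs. The list median was 0.60 in the first set and −0.35 in the second, and CCNB1 itself was 3.0 in the first set and −0.52 in the second, and 0.47 over all cells without its highest COL1A2-high cell. CDKN1A, the inhibitor p21, had −0.76. MKI67, a marker of cycling cells, had reads in 23 of 36 COL1A2-high cells and 10 of 20 COL1A2-negative cells.

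None of 11 glycolysis and hypoxia genes was past 2-fold, beside 1.57% of all genes higher and 0.801% lower. A ratio above 0 was found for 1, beside 58.5% of all genes, and the median was −0.19, beside 0.07. Below 0 over all cells and in each set were 6, and the share of all genes that were so was not taken. BNIP3 (a mitophagy receptor induced by hypoxia) had −0.54, VEGFA −0.56 and PDK1 (a kinase that inhibits pyruvate dehydrogenase) −0.66. The 8 housekeeping genes counted had a median of 0.03 and none past 2-fold. Of the 3 pluripotency genes counted, TERT, the telomerase subunit, was past 2-fold higher (1.42), beside 1.57% of all genes. It averaged 8.49 in COL1A2-negative cells and passed the filter only through the other iNSLCs. LIN28A had 0.94. Human LIN28 is on the vectors, and the part of its reads in this value was not tested either. EGR1 was the single stress response gene of 8 past 2-fold (1.30), beside 1.57% of all genes higher. It had 0.50 and 2.20 in the sets and 0.71 without its highest COL1A2-high cell.

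Other divisions of the iNSLCs crossed this one. Reads of CRABP1 were present in 26 of 36 COL1A2-high cells (72.2%) and 10 of 20 COL1A2-negative cells (50.0%), of HOXA9 in 58.3% and 50.0%, of NEUROG2 in 27.8% and 45.0%, and of POU5F1 in 36.1% and 30.0%, each with intervals that overlap.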

How the data were processed

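The signal analysed was the normalized counts that the authors deposited, with a separate factor for each cell. Tools named in the submitters' processing notes were featureCounts 1.5.1, STAR 2.6.0c, Seurat 3.0.0 and Trimmomatic. The genome build is not given in the sources used here, nor are the gene models. All values came out as whole reads once divided by the smallest value of their cell (100% within 0.02). The nameless row, at most 0.0137% of an iNSLC's total, was left out.

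Ratios are log2 of arithmetic class means after a pseudocount of 1, for genes with a mean of at least 10 over the 65 iNSLCs. Python 3.11.15, pandas 2.3.3, numpy 2.4.6, scipy 1.17.1 and matplotlib 3.10.9 were used, and the steps were tested on simulated data. No test between the classes was run, since the cells are of 1 clone and were chosen by a measured value. A share of 0 is limited at 3 cells of the total. Shares at equal depth are hypergeometric expectations at 129629 reads, the 10th percentile of iNSLCs, with shallower cells left out (33 COL1A2-high and 16 COL1A2-negative cells kept).

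Members and the 23 gene lists were chosen with earlier results of these data known. Of 463 listed genes 417 had a row, including TUBB3 and KRT7, matched through RefSeq gene IDs (calJac240_pri, names only). Named genes are list members, the genes most and least like COL1A2 by mean rank correlation within the sets, and up to 15 named genes in each direction past 2-fold over all cells, in each set and without the highest cell of the higher class. Alternatives changed the pseudocount, the filter, the scaling, the mean, the limits on COL1A2 and the cells used. Those without the cells with INSM1 reads, without shallow cells and with lists matched by symbol only were chosen after seeing the data.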

Additional observations from a re-analysis of the deposited data

Results flagged for a closer look

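COL1A2 in the single fibroblast is listed because that cell was outside the comparison of the classes and served only as a reference level. The gene was taken as the one that defines the classes, and no ranking of genes was made. Its level there was 11345 normalized counts, against 0 to 1.62 in PSCs. With 1 fibroblast there is no spread to set beside it. In the 9 iNSLCs between the classes, 8 measures were examined for a cell far from the others and none was flagged, where chance would flag about 1 in 20.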

How the results depend on the processing

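No paired analysis was possible because the cells carry no replicate numbers shared between the classes. The counts of genes depended on how means were taken, which genes were counted and which cells were used. The main counts, 96 higher and 49 lower, were 16 and 17 with a pseudocount of 10, 562 and 276 with a mean of at least 1, and 619 and 348 with no filter. The mean of log2 values gave 294 higher genes. Without the highest cell of each class for each gene, 24 genes were lower. Within cells numbered 56 or below the counts were 363 and 149, and within those numbered 57 or above 86 genes were lower. With COL1A2 of 100 or more (18 cells) against 0, 79 were lower. The 34 and 18 genes past 2-fold in each set were 190 and 81 with a mean of at least 1, and 4 and 7 with a pseudocount of 10. Weaker filters count more genes, but the share past 2-fold higher also moved, to 4.13% with a mean of at least 1, against 1.57%. A larger pseudocount shrinks low genes. The cause of the other changes was not tested. Among list members past 2-fold over all cells, signs turned for HES5 (−0.0044 in cells numbered 56 or below), CCNB1 (−0.52 in cells numbered 57 or above and −0.31 with COL1A2 of 100 or more) and DLL1 (0.57 without the cells with INSM1 reads). All 281 alternative list medians moved by less than the SD between cells of a class, a limit too wide to show that they held. It was 1.22 for proneural and neuron genes, whose median went from −1.03 to −0.17 without the cells with INSM1 reads. For cell cycle genes it was 1.02, and their median went from 0.17 to −0.35 in cells numbered 57 or above. All 40 alternative shares stayed within their intervals, which are also wide. Depth limits presence: genes near 1 read per cell cannot be read as absent, and the classes had unequal depth.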
